A study of Mus musculus with 33 samples.

Results

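Glycolysis and hypoxia response genes are described here in mouse hippocampal neural stem cells (NSCs), cultured progenitors of neurons and glia. The 35 members were chosen by symbol: glucose and lactate transporters (2), enzymes and regulators of the preparatory phase of glycolysis (11), enzymes of its payoff phase (6), genes of pyruvate fate (5), oxygen sensors (3) and other hypoxia response genes (8). All 35 were found among 26621 symbols in the count tables, and all 35 passed the filter on low counts in each of the 3 assays. The series asked how YTHDF2, a protein that binds N6-methyladenosine (m6A) in RNA and promotes the decay of bound transcripts, acts in these cells. NSCs came from the hippocampus at postnatal day 0.5 and grew as attached cultures with bFGF and EGF. For RNA-seq, cells with the genotype labels Nestin-WT (WT) and Nestin-cKO (Ythdf2 conditional knockout, cKO) were exposed to 5 µM actinomycin D, which blocks transcription, and collected at 0, 2 and 4 h, with 3 libraries for each genotype and time. In untreated WT cells, RNA was pulled down with an m6A antibody beside an input (3 libraries each), and RNA was pulled down from lysates with a YTHDF2 antibody beside IgG and an input (3 each). The labels give Nestin in the genotype names with no further account of what drives the deletion, and do not say whether replicates came from separate animals, so p-values measure the spread between these libraries, which may be technical.

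Glycolysis splits glucose into pyruvate, spending ATP in its preparatory phase and earning ATP and NADH in its payoff phase, and lactate dehydrogenase then regenerates NAD so that the pathway can run without oxygen. When oxygen falls, prolyl hydroxylases (Egln genes) no longer mark the HIF1A protein for destruction, and HIF1A with its partner ARNT binds hypoxia response elements and raises many glycolytic genes, pyruvate dehydrogenase kinase Pdk1, the mitophagy receptors Bnip3 and Bnip3l, and Vegfa. Neural stem and progenitor cells are known for a high rate of glycolysis, which falls as they become neurons.

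The core of the hypoxia response element is ACGTG or GCGTG, and promoters of 3 of the genes that were lower at every time below are shown because ACGTG stands there before the start site. The sequences are the 250 bases before the RefSeq start (GRCm38.p6), 5′ to 3′ on the gene's strand, with each ACGTG, or CACGT on the other strand, in capitals. Bnip3 (minus strand) is at chr7:138909507-138909756, Pgk1 (plus strand) at chrX:106186850-106187099 and the first of 2 Ldha starts (plus strand) at chr7:46845554-46845803.
Bnip3: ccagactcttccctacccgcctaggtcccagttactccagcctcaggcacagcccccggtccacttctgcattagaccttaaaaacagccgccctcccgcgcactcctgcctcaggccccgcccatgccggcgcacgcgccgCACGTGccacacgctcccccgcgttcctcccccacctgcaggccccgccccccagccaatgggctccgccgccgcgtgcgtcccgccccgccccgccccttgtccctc
Pgk1: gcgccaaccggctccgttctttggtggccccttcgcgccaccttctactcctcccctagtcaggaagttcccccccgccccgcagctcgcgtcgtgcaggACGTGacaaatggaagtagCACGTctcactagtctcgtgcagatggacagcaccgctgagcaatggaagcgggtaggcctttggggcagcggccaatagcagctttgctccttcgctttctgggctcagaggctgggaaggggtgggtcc
Ldha: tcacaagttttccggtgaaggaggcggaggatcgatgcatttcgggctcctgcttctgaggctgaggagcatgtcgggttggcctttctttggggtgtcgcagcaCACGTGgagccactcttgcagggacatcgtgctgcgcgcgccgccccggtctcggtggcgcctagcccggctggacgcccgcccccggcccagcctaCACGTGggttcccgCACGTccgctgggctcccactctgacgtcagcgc

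Bnip3 held 1 place, the palindrome CACGTG that reads as ACGTG on both strands and was counted as 1, with its first base 108 bases before the start. Pgk1 held 2 places, 150 and 131 bases before the start. Ldha held 3, at 145, 48 and 34 bases before it, the first 2 of them CACGTG. Counting 250 bases before to 50 after each start, both strands, with overlapping places of the same motif merged, ACGTG occurred in 30 of 51 member promoters (58.8%), those of 26 of the 34 members with an entry, and in 6447 of all 32851 promoters (19.6%). GCGTG, the other form, occurred in 29 of 51 (56.9%) and in 10639 of all (32.4%). Of the genes lower at every time, Aldoc held ACGTG at 1 of its 2 starts, Pfkl and the 2 starts of Pdk1 held no ACGTG, and Bnip3l had no entry. Bnip3, Pfkl, 1 start of Pdk1 and the 2 starts each of Aldoc and Ldha held GCGTG, and Pgk1 did not. A match describes letters in a window and is not a measured site.

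Library totals ran from 10257329 to 21353383 counts in RNA-seq, from 12892222 to 28334300 in the m6A series and from 8419106 to 23097887 in the YTHDF2 series. Ythdf2 went against its label: CPM, normalised by TMM library size, were 736 to 3117 in the libraries labelled cKO and 60.4 to 258 in WT, so genotypes are named by label throughout. Whether the labels of WT and cKO are exchanged was not tested, and an exchange would turn the sign of every genotype difference given here. In the YTHDF2 series the sample descriptions and column names give input and YTHDF2 the opposite way from the sample titles, and the descriptions are used. Replicate 1 at 0 h of the libraries labelled cKO stood apart, with 3117 CPM of Ythdf2 against 1035 and 736 in replicates 2 and 3. Members took 0.419% of all TPM there, a level per transcript length, against 0.844% and 0.856%. Of the 9 NSC markers tested between genotypes at 0 h, 3 were lower (33.3%) and 1 was higher (11.1%) under the cKO label, against 9.89% and 7.71% of all genes. Vim stood at 589 to 667 CPM in WT and 1671 to 1803 in the libraries labelled cKO, Fabp7 at 7981 to 8461 and 2197 to 5577, Pax6 at 29.6 to 37.0 and 11.6 to 21.1, and Prom1 at 36.5 to 58.9 and 5.63 to 7.81. The groups did not overlap for these 4 markers, nor for Hes1, which stood higher under the cKO label (17.2 to 21.0 CPM in WT and 24.1 to 58.3). Notch1 stood at 17.1 to 24.2 and 22.7 to 31.7, and Slc1a3 at 3873 to 5248 and 1060 to 3944, with overlap in each. Nes stood at 34.7 to 45.0 CPM in WT and 32.9 to 46.9 in the libraries labelled cKO. Sox2 stood at 68.1 to 78.1 and 61.9 to 102, and Msi1 was at or near 0 in all.

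Per length of transcript, WT cells at 0 h held most of Ldha, 1903 ± 138.7 TPM (SD, n = 3), and of Eno1 (1705 ± 133). Next came Aldoc (1096 ± 296), Gapdh (796 ± 46.3), Tpi1 (738 ± 19.3), Aldoa (738 ± 202), Pkm2 (645 ± 148), Ldhb (636 ± 40.5) and Pgk1 (626 ± 31.9). Ldha and Eno1 overlapped in range, as did most neighbours from Gapdh down. Bnip3 (363 ± 28.5), Higd1a (347 ± 5.59), Gpi1 (313 ± 27.7) and Bnip3l (182 ± 3.1) came next, and Hif1a and Egln1 stood at 54.5 ± 1.01 and 54.6 ± 0.386. The other 15 members lay between 6.10 (Pfkfb2) and 67.0 (Pfkp). The lowest were Hk1 (3.53 ± 0.850), Eno2 (3.32 ± 0.380), Egln3 (3.29 ± 0.669), Ddit4 (2.24 ± 0.658) and Slc16a3 (0.465 ± 0.174). The members together took 0.997% to 1.09% of all TPM in WT. The WT inputs of the other assays were made with another library method and normalised separately. They held 22.8 ± 2.07 (m6A) and 57.9 ± 37.5 TPM (YTHDF2) of Slc16a3, 126 ± 7.40 and 92.1 ± 38.7 of Hk1, and 88.5 ± 12.3 and 99.7 ± 45.6 of Ddit4, all far above the RNA-seq level. Other members stood below it in both inputs, such as Aldoc (506 ± 148 and 516 ± 86.7), Higd1a (115 ± 11.4 and 155 ± 23.0) and Egln1 (14.5 ± 2.75 and 18.5 ± 7.6). Gpi1 stood at 2718 ± 58.4 and 2440 ± 1054, and Ldha at 2356 ± 107 and 2367 ± 473. No test was made across assays.

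The first comparison asked which members differed between the genotypes at each time. A group of mitophagy, pyruvate and glycolytic genes was lower in the libraries labelled cKO at every time: Bnip3, Bnip3l, Pdk1, Ldha, Pgk1, Pfkl and Aldoc. In all, 8 members were lower and 2 higher at 0 h, 11 lower and 0 higher at 2 h, and 12 lower and 1 higher at 4 h (edgeR's quasi-likelihood test, two-sided, Benjamini-Hochberg adjusted p under 0.05 over 14029 genes). Among all genes tested, 9.89% were lower and 7.71% higher at 0 h, 8.54% and 8.52% at 2 h, and 9.11% and 11% at 4 h, against 22.9%, 31.4% and 34.3% of members lower. The median log2 fold change of the members was -0.18, -0.44 and -0.60 at 0, 2 and 4 h, where the median of all genes was -0.0050, 0.053 and 0.084. Of the 35 members, 7 were lower at all 3 times, 3 at 2 times, and 4 at 1 time, 3 were higher at 1 time, and 18 had no call at any time. At 2 h, 17 members had an unadjusted p under 0.05 with edgeR, DESeq2 called 1 higher and 14 lower, and edgeR with library size alone 2 higher and 10 lower. In bulk RNA, fewer cells of a type and less RNA per cell cannot be told apart.

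**Figure D1:**
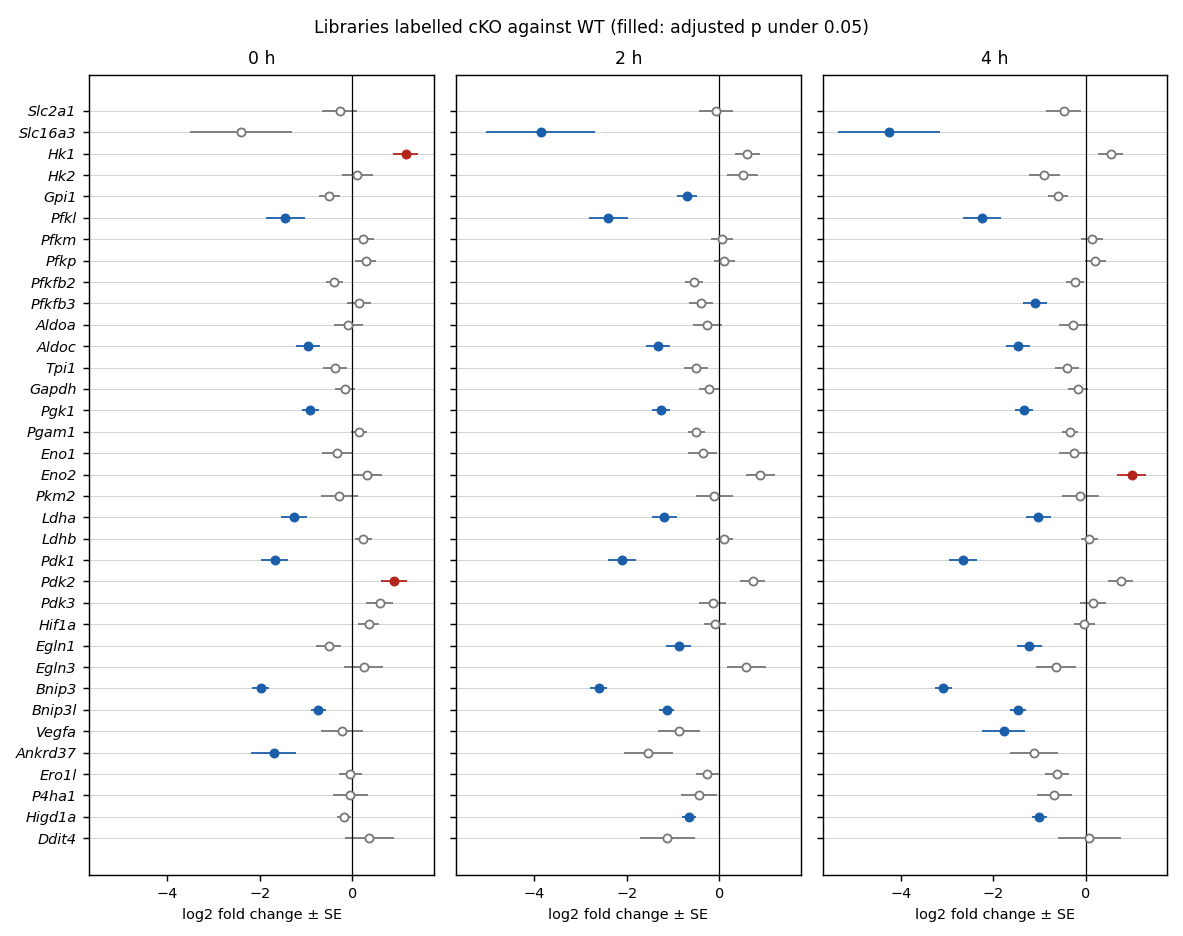
Log2 fold change ± SE of each member in the libraries labelled cKO against WT, 3 libraries a group, at 0, 2 and 4 h of actinomycin D. Filled points have an adjusted p under 0.05; Bnip3 runs from -1.99 at 0 h to -3.08 at 4 h, and the points of Slc16a3 depend on counts of 0 to 4 per library labelled cKO.

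Among the transporters, Slc16a3 (MCT4, which exports lactate) was nearly absent from the libraries labelled cKO. Its raw counts in replicates 1, 2 and 3 were 4, 0 and 0 at 0 h, 0, 1 and 1 at 2 h and 0, 3 and 0 at 4 h, against 10, 4 and 13, 21, 6 and 6 and 34, 10 and 13 in WT. In CPM the groups did not overlap at any time. Slc16a3 was called lower at 2 and 4 h (adjusted p = 0.0344 and 0.0136) and was not called at 0 h (adjusted p = 0.128). At 0 h 1 library labelled cKO held as many raw counts as 1 of WT, and these stood at 0.331 and 0.337 CPM. The call at 2 h ended without any 1 of the 6 libraries (adjusted p 0.0532 to 0.14), and that at 4 h without cKO 4 h replicate 3 or WT 4 h replicate 1 (adjusted p 0.0567 to 0.0616). Slc2a1 (GLUT1, the main glucose importer of glia) stood at 10.6, 9.69 and 6.11 CPM in WT and 4.39, 8.18 and 9.16 in the libraries labelled cKO at 0 h, with overlapping groups (-0.28 ± 0.38, adjusted p = 0.629).

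In the preparatory phase, the liver-type phosphofructokinase Pfkl and the brain aldolase Aldoc were lower at every time, and most of the other enzymes were not called. Pfkl stood at 21.4, 12.5 and 7.71 CPM in WT and 4.06, 3.53 and 7.65 in the libraries labelled cKO at 0 h. At 4 h the values were 63.5, 26.8 and 24.8 against 7.78, 8.96 and 7.51. WT replicate 1 was high at both times, and the genotypes did not overlap, although replicate 3 of each stood at nearly the same level at 0 h. The differences were -1.45 ± 0.42, adjusted p = 0.0284 at 0 h, -2.40 ± 0.42, adjusted p = 0.00198 at 2 h and -2.25 ± 0.42, adjusted p = 0.00218 at 4 h. At 0 h the call of Pfkl ended without cKO 0 h replicate 1 or 2 or WT 0 h replicate 1 or 2 (adjusted p 0.0568 to 0.15). Aldoc, which splits fructose bisphosphate and is typical of astrocytes and radial glia, stood at 680.2, 1183 and 907 in WT and 335, 575 and 511 at 0 h (-0.96 ± 0.26, adjusted p = 0.0208), with no overlap. It differed by -1.32 ± 0.26 at 2 h and -1.47 ± 0.26 at 4 h. The call of Aldoc at 0 h ended without cKO 0 h replicate 1 or WT 0 h replicate 2 or 3 (adjusted p 0.0556 to 0.0939). Its ubiquitous relative Aldoa stood at 841, 627 and 518 in WT and 334, 711 and 823 in the libraries labelled cKO, and it was not called at any time (-0.088, -0.25 and -0.27).

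Hexokinase 1 (Hk1), which traps glucose in the cell, went the other way at 0 h. It stood at 8.9, 8.76 and 5.87 CPM in WT and 19.5, 13.9 and 18.6 in the libraries labelled cKO (1.15 ± 0.28, adjusted p = 0.0118), without overlap. The call ended without WT 0 h replicate 3 (adjusted p 0.0632), and at 2 and 4 h Hk1 was not called (0.60 and 0.54). Hexokinase 2 (Hk2) stood at 12.7, 10.7 and 16 in WT and 9.04, 6.33 and 5.83 at 4 h and was not called at any time (0.11, 0.51 and -0.90). Gpi1, the isomerase of glucose phosphate, was lower at 2 h (763, 690.0 and 662 in WT against 447, 498 and 362, -0.69 ± 0.22, adjusted p = 0.0426). That call ended without any 1 of the 6 libraries (adjusted p 0.0517 to 0.175). Pfkfb3, a kinase that makes the activator of phosphofructokinase, was lower at 4 h (16.3, 15 and 14.4 against 7.5, 8.83 and 5.05, -1.10 ± 0.26, adjusted p = 0.00902). Its relative Pfkfb2, the muscle and platelet phosphofructokinases Pfkm and Pfkp and the triose isomerase Tpi1 were not called at any time, with differences from -0.54 (Pfkfb2 at 2 h) to 0.29 (Pfkp at 0 h). Without the 0 h replicate of the libraries labelled cKO that stood apart, Pfkm and Pfkp were called higher at 0 h (0.54, adjusted p = 0.0188 and 0.58, adjusted p = 0.00928).

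In the payoff phase, Pgk1, which makes ATP, was lower at every time. It stood at 553, 523 and 597 CPM in WT and 292, 342 and 257 in the libraries labelled cKO at 0 h, and at 1169, 1016 and 1213 and 510.5, 500.0 and 339 at 4 h. No library labelled cKO reached a WT library at the same time, and the differences were -0.91 ± 0.19, adjusted p = 0.00583, -1.25 ± 0.19 and -1.33 ± 0.19. The neuronal enolase Eno2 was higher at 4 h (3.7, 5.73 and 4.53 in WT against 8.41, 9.79 and 9.37, 0.99 ± 0.32, adjusted p = 0.039). The call ended without cKO 4 h replicate 2 or 3 or WT 4 h replicate 1, 2 or 3 (adjusted p 0.0633 to 0.162). The dehydrogenase Gapdh, the mutase Pgam1, the enolase Eno1 and the pyruvate kinase Pkm2 were not called at any time, with values of -0.16, 0.14, -0.34 and -0.28 at 0 h. Pkm2 is an older symbol of the gene Pkm, so its values are those of the gene and not of a single transcript form. Within the libraries labelled cKO at 0 h, replicate 1 was low in Eno1 (472, 1685 and 1383 CPM) and Pkm2 (217, 858 and 959), while WT held 1591, 1430.0 and 1465 and 1014, 770.4 and 693. Gapdh, Eno1, Pgk1, Pgam1, Ldha, Tpi1 and Aldoa have pseudogene copies that could share their reads, so the values of these genes are less certain.

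Of the genes of pyruvate fate, Pdk1 and Ldha were lower at every time and their relatives were not called lower. Pdk1, a kinase that shuts off pyruvate dehydrogenase and so limits the turning of pyruvate into acetyl-CoA, stood at 26, 34.2 and 27.3 CPM in WT and 6.71, 8.93 and 11.6 in the libraries labelled cKO at 0 h, and at 77.9, 76.9 and 101 and 8.76, 13.5 and 18.5 at 4 h. The differences were -1.68 ± 0.30, adjusted p = 0.00202 at 0 h, -2.10 ± 0.30, adjusted p = 3.25e-04 at 2 h and -2.65 ± 0.30, adjusted p = 3.83e-05 at 4 h. The groups did not overlap at any time. Pdk2, another kinase of this family, was higher at 0 h (0.90 ± 0.28, adjusted p = 0.0342), although its groups overlapped (10.9, 11.7 and 10.3 in WT and 10.2, 20.6 and 30.7). The call ended without cKO 0 h replicate 2 or 3 or WT 0 h replicate 1, 2 or 3 (adjusted p 0.0678 to 0.201). Pdk3 was not called at any time (0.59, -0.14 and 0.15). Ldha, the lactate dehydrogenase subunit that favours lactate, stood at 1909, 1686 and 1848 in WT and 533, 1028 and 709.6 at 0 h, with no overlap. It differed by -1.26 ± 0.27, adjusted p = 0.00686 at 0 h, -1.19 ± 0.27 at 2 h and -1.03 ± 0.27 at 4 h. The call at 4 h ended without cKO 4 h replicate 3 (adjusted p 0.0792). Ldhb, the other subunit, stood at 371, 429.5 and 416 and 328, 565 and 534 and was not called at any time (0.23 at 0 h).

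**Figure D2:**
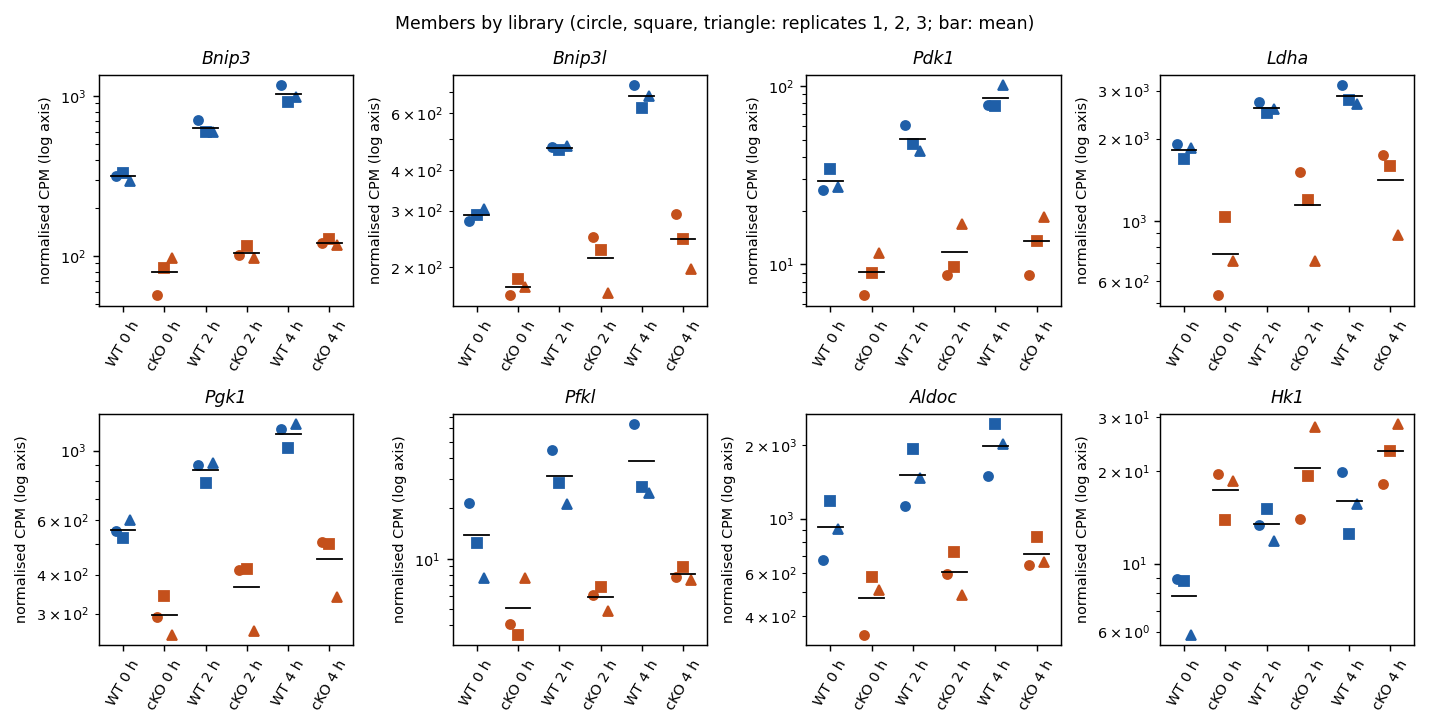
Normalised CPM (log axis) of 8 members in each of the 18 RNA-seq libraries, with WT in blue and the libraries labelled cKO in orange, circles, squares and triangles for replicates 1, 2 and 3, and a bar at the mean. Bnip3 in WT goes from 296 to 333 at 0 h to 921 to 1174 at 4 h, and stays between 56.8 and 127 in the libraries labelled cKO, while Hk1 at 0 h is lowest in WT.

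Of the 3 oxygen sensing genes, 0 were called at 0 h and 1, Egln1, was lower at 2 h and at 4 h. Hif1a, the oxygen-regulated subunit itself, stood at 125, 130.1 and 129.8 CPM in WT and 236, 143 and 110.5 in the libraries labelled cKO at 0 h, with overlap (0.35 ± 0.23, adjusted p = 0.295). It was not called at 2 or 4 h either (-0.092 and -0.031). Egln1, the main prolyl hydroxylase, was lower at 2 h (-0.88 ± 0.27, adjusted p = 0.0349) and 4 h (143, 133 and 195 against 80.2, 71.5 and 50.3, -1.22 ± 0.27, adjusted p = 0.00609). At 0 h, replicate 1 of the libraries labelled cKO was above all WT libraries (103, 54.6 and 41.7 against 93.5, 94.1 and 97.5), and without it Egln1 was lower at 0 h also (-0.98, adjusted p = 0.00937). The call at 2 h ended without cKO 2 h replicate 2 or 3 or WT 2 h replicate 1, 2 or 3 (adjusted p 0.078 to 0.149). Egln3, a hydroxylase that hypoxia raises, was not called at any time (0.24, 0.59 and -0.64).

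Among the other hypoxia response genes, the mitophagy receptor Bnip3 had the largest difference of the members called at 2 and 4 h apart from Slc16a3, whose counts were near 0. Bnip3 stood at 317, 333 and 296 CPM in WT at 0 h, 710.4, 593 and 598 at 2 h and 1174, 921 and 990.1 at 4 h. In the libraries labelled cKO it stood at 56.8, 84.6 and 97.2, 101, 115 and 96.8 and 120.0, 127 and 117. The highest library labelled cKO was well below the lowest WT library at each time. The differences were -1.99 ± 0.18, adjusted p = 1.29e-05 at 0 h, -2.60 ± 0.18, adjusted p = 3.61e-07 at 2 h and -3.08 ± 0.19, adjusted p = 7.28e-08 at 4 h. Its relative Bnip3l stood at 278, 290.3 and 304 in WT and 164, 184 and 174 at 0 h, -0.74 ± 0.17, adjusted p = 0.00779, and differed by -1.14 ± 0.17 at 2 h and -1.47 ± 0.17 at 4 h, with no overlap at any time. Leaving out a WT replicate number at all 3 times ended the call at 0 h of Bnip3l (numbers 1, 2 and 3, adjusted p 0.0616 to 0.102), Ldha (1 and 3, 0.0723 to 0.0735) and Pgk1 (1 and 3, 0.0675 to 0.0805).

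Higd1a, a small protein of the mitochondrial inner membrane, was lower at 2 h (-0.66 ± 0.15, adjusted p = 0.00985) and at 4 h (757, 716 and 756 in WT against 337, 384 and 390.2, -1.004 ± 0.15, adjusted p = 5.59e-04). At 0 h it stood at 310.0, 326 and 328 and 360.3, 261 and 228 and was not called. Without replicate 1 of the libraries labelled cKO it was lower there too (-0.40, adjusted p = 0.0338). Vegfa, the angiogenic factor, was lower at 4 h (25.3, 22.2 and 19.5 against 4.64, 5.5 and 9.37, -1.78 ± 0.46, adjusted p = 0.0137) and not at 0 h (-0.23). That call ended without cKO 4 h replicate 2 (adjusted p 0.0533). Ankrd37, an ankyrin-repeat gene that HIF1A raises, was lower at 0 h at low levels (4.65, 2.36 and 3.08 against 1.32, 1.05 and 0.717, -1.70 ± 0.48, adjusted p = 0.0253). The call ended without cKO 0 h replicate 2 or 3 or WT 0 h replicate 1 or 3 (adjusted p 0.0607 to 0.11). The oxidase of the endoplasmic reticulum Ero1l, the collagen hydroxylase subunit P4ha1 and the mTORC1 inhibitor Ddit4 were not called at any time, with values of -0.046, -0.044 and 0.37 at 0 h. Bnip3 and Pdk1 at all 3 times, Pfkl, Aldoc, Pgk1 and Bnip3l at 2 and 4 h and Higd1a at 4 h kept their call under all 20 alternatives run.

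Without replicate 1 at 0 h of the libraries labelled cKO, 9 members were lower and 5 higher at 0 h, and without WT replicate 3 at 0 h 6 were lower and 0 higher. Markers of other cells moved with the labels. Summed CPM at 0 h in WT and in the libraries labelled cKO were 1171 to 1711 and 606 to 932 for 8 astrocyte genes, 419 to 572 and 143 to 247 for 10 oligodendrocyte lineage genes, and 194 to 245 and 56.2 to 75.5 for 7 neuronal genes. They were 12680 to 14590 and 7251 to 11110 for 10 NSC genes, mostly Fabp7 and Slc1a3, and 2554 to 3213 and 523 to 1714 for 8 proliferation genes. At 0 h 3 of 8 astrocyte, 5 of 10 oligodendrocyte lineage and 3 of 7 neuronal genes were called lower, and 0, 0 and 1 higher. Aldh1l1, Olig2, Cspg4 and Cnp overlapped between the groups. The neuronal sum was mostly Snap25 (116 to 139 and 35.6 to 54.2), while Stmn2 stood higher under the cKO label (1.011 to 1.897 and 1.905 to 5.416). Of 10 fibroblast and meningeal genes 8 were tested, and 6 were higher and 1 lower at 0 h (Col1a1 0 to 0.0843 CPM in WT and 0.911 to 3.82). That is 75% and 12.5%, against 7.71% and 9.89% of all genes. The sum of the 10, mostly Cdh11, was 148 to 193 and 67.4 to 134.5. Microglial and endothelial genes (6 each) summed to at most 3.90 CPM at 0 h, with 4 and 2 of them at 0 in every library of each group. The part of these differences in the results above was not tested.

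Outside the members, of 37 other sugar metabolism genes tested, 3 were higher and 0 lower at 0 h, 3 and 2 at 2 h, and 5 and 2 at 4 h. That is 8.11% higher and 0% lower at 0 h, 8.11% and 5.41% at 2 h, and 13.5% and 5.41% at 4 h, against 7.71% and 9.89%, 8.52% and 8.54%, and 11% and 9.11% of all genes. Gpd1, which turns a glycolytic intermediate into glycerol phosphate, was higher at every time (1.91 ± 0.28 at 0 h), as was Brp44 (1.34 ± 0.33), an older symbol of a subunit of the mitochondrial pyruvate carrier. Gbe1, the glycogen branching enzyme, was lower at 2 and 4 h (-0.80 ± 0.21 at 4 h). Dlat, of the pyruvate dehydrogenase complex, was higher at 0 h (0.90 ± 0.29), and the lactate and pyruvate transporter Slc16a1 was not called (0.56, adjusted p = 0.0536). Of 41 other HIF pathway and target genes, 3 were higher and 3 lower at 0 h, 1 and 8 at 2 h, and 1 and 11 at 4 h (7.32% and 7.32%, 2.44% and 19.5%, and 2.44% and 26.8%). Fam162a, a HIF target, was lower at 0, 2 and 4 h (-0.96 ± 0.18, -1.34 ± 0.19 and -1.46 ± 0.19). Kdm3a, a histone demethylase, was lower at 0 and 4 h (-1.16 ± 0.19 and -1.08 ± 0.19). Vhl, which receives hydroxylated HIF1A for destruction, was lower at 2 and 4 h (-1.13 ± 0.24 and -1.25 ± 0.24). Cited2, an inhibitor of HIF, and the peptide hormone Adm were higher at 0 h (3.32 ± 0.53 and 1.44 ± 0.38). Of each list only the 4 genes with the smallest p at a time were read out. A time left out for Dlat, Kdm3a, Vhl, Cited2 or Adm therefore need not be a time without a call.

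For isoenzymes and paralogs, the make-up was taken as shares of summed TPM (mean ± SD, 3 libraries). Ldha made up 74.9% ± 2.54 of the lactate dehydrogenase transcripts in WT at 0 h and 51.3% ± 3.98 in the libraries labelled cKO, and the ranges did not overlap (72.4% to 77.5% and 47.0% to 54.9%). Pdk1 made up 37.2% ± 4.52 of Pdk1, Pdk2 and Pdk3 in WT at 0 h and 49.8% ± 4.06 at 4 h, and 9.76% ± 1.73 and 9.85% ± 2.89 in the libraries labelled cKO. Bnip3 made up 66.6% ± 2.06 of Bnip3 and Bnip3l in WT and 45.2% ± 5.94 in the libraries labelled cKO at 0 h. Aldoc made up 59.5% ± 11.4 and 46.1% ± 5.93 of the aldolases, with overlap, and Hk1 35% ± 3.79 and 53.5% ± 10 of the hexokinases, with no overlap (32.4% to 39.3% and 46.6% to 65.0%). In WT, Hk1 reached 64.6% ± 1.11 at 2 h. No test was run on the shares.

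**Figure D3:**
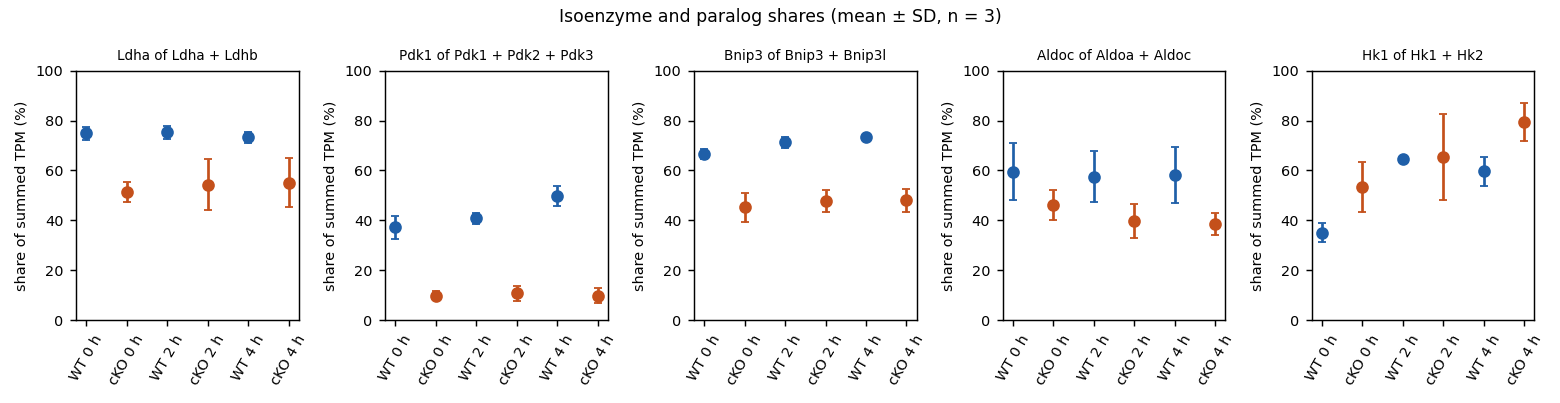
Share of each named gene in the summed TPM of its isoenzymes or paralogs (percent, mean ± SD over 3 libraries), by genotype label and time of actinomycin D, with WT in blue and the libraries labelled cKO in orange. Ldha lies at 73.2% to 75.3% in WT and 51.3% to 55.1% in the libraries labelled cKO, and Pdk1 at 9.76% to 10.7% in the latter.

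The second comparison followed each genotype through actinomycin D. Normalised CPM are relative to the rest of the library, so a higher value is a larger share of the RNA that remains. In WT, 8 members were higher and 2 lower at 2 h, and 20 higher and 3 lower at 4 h, against 3.63% and 13.7% of all genes at 2 h and 15.6% and 24.2% at 4 h. In the libraries labelled cKO, 0 were higher and 3 lower at 2 h, where edgeR gave 11 members an unadjusted p under 0.05 and DESeq2 called 1 higher and 3 lower. At 4 h 14 were higher and 3 lower there. Of all genes, 2.21% were higher and 9.85% lower there at 2 h, and 12.1% and 18% at 4 h. The time comparisons of a genotype share its 0 h libraries, and those libraries also enter the genotype comparison at 0 h. At 4 h, 13 members were higher and 2 lower in each genotype, 7 were higher in WT with no call in the libraries labelled cKO, and 10 had no call in either. This split is no test of a difference between genotypes, which the slopes below address. Replicate numbers pair the times of a genotype, and with the number as a block the counts were 17 higher and 3 lower for WT at 2 h and 9 higher and 4 lower for the libraries labelled cKO at 2 h. The shares of all genes above belong to the fit without the block.

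The counts of calls differed with the scale, and shares of all genes are given for the TMM scale alone. With library size alone the counts were 4 higher and 3 lower (WT at 2 h), 11 higher and 3 lower (WT at 4 h) and 2 higher and 5 lower (cKO label at 4 h). Scaled to ribosomal protein genes they were 1 higher and 3 lower, 3 higher and 7 lower and 0 higher and 10 lower, and the median of all genes moved to -0.39, -0.71 and -0.63. With limma on log2(TPM + 1) they were 1 higher and 4 lower, 6 higher and 5 lower and 2 higher and 7 lower. Relative to the median of all genes, the members' median at 4 h was 0.90 to 0.91 above it in WT under the TMM, RLE, library size and ribosomal scales and 0.60 on TPM, and 0.40 to 0.41 and 0.28 above it in the libraries labelled cKO. Directions below are on the TMM scale, where the median of all genes was 0.0050 in WT and 0.083 in the libraries labelled cKO at 4 h.

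Enzymes of the payoff phase rose in share in both genotypes on this scale, 5 of 6 at 4 h in each. Pkm2 went from 1014, 770.4 and 693 CPM to 3112, 2241 and 1903 in WT (1.55 ± 0.41, adjusted p = 0.0057). It went from 217, 858 and 959 to 2832, 2423 and 1431 in the libraries labelled cKO (1.72 ± 0.41, adjusted p = 0.00426). Gapdh rose by 1.06 ± 0.22 and 1.04 ± 0.22, Eno1 by 0.96 ± 0.32 and 1.03 ± 0.32, Pgk1 by 1.02 ± 0.19 and 0.60 ± 0.19, and Pgam1 by 1.14 ± 0.18 and 0.66 ± 0.18, WT first, while Eno2 was not called (0.094 and 0.77). On the ribosomal scale Pgk1 and Pgam1 stood at -0.12 and -0.073 in the libraries labelled cKO, with no call, and the libraries of Pgk1 at 0 and 4 h overlapped there. In the preparatory phase Aldoa (1.19 and 1.01), Tpi1 (1.02 and 1.001), Pfkm (1.07 and 0.97) and Gpi1 (0.92 and 0.82) rose in each genotype. Pfkl, Aldoc and Hk1 rose in WT (1.47 ± 0.41, 1.10 ± 0.26 and 1.03 ± 0.27). They were not called in the libraries labelled cKO (0.67, 0.60 and 0.42), where the block called Pfkl (adjusted p = 0.04) and Aldoc (0.00129).

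A few members fell. Ddit4, which shuts down mTORC1 under stress, went from 2.36, 1.85 and 1.36 CPM to 0.314, 0.191 and 0.388 in WT (-2.58 ± 0.62, adjusted p = 0.00337). It went from 1.57, 2.1 and 3.5 to 0.286, 0.256 and 0.421 in the libraries labelled cKO (-2.87 ± 0.61, adjusted p = 0.00193). Ddit4 was lower in those already at 2 h (-2.51 ± 0.59, at 0.108 to 0.763 CPM). Pfkfb3 fell by 1.38 at 2 h and by 0.69 at 4 h in WT, and by 1.91 and 1.93 in the libraries labelled cKO, on the log2 scale. Ankrd37 fell in WT at 2 and 4 h (-1.88 ± 0.48 and -1.60 ± 0.48) and at 2 h in the libraries labelled cKO (-1.71 ± 0.54, at 0.216 to 0.460 CPM). Hk2 fell at 4 h in the libraries labelled cKO (27.3, 17.7 and 12.3 to 9.04, 6.33 and 5.83, -1.43 ± 0.34, adjusted p = 0.00428) and was not called in WT (-0.43). At 2 h in WT, the call of Ankrd37 ended without WT 0 h replicate 1 or WT 2 h replicate 1 or 3 (adjusted p 0.0552 to 0.0659).

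Of the genes of pyruvate fate, Ldhb and Pdk2 rose at 4 h in each genotype (0.79 and 0.63, and 0.94 and 0.80), but on the ribosomal scale Ldhb stood at -0.11 in the libraries labelled cKO, with no call. Ldha rose in the libraries labelled cKO (0.89 ± 0.27, with overlap) and stood at 0.66 ± 0.27 in WT (adjusted p = 0.0617, with the block 0.0138). Pdk1 rose in WT (1.55 ± 0.29) and stood at 0.58 ± 0.29 in the libraries labelled cKO (adjusted p = 0.147, with the block 0.0268). Pdk3 was not called in either (0.63 and 0.19; with the block, WT had adjusted p = 0.0271). Among the hypoxia response genes Bnip3 rose by 1.71 ± 0.18 in WT and 0.61 ± 0.18 in the libraries labelled cKO, and Bnip3l by 1.22 ± 0.17 and 0.49 ± 0.16. On the ribosomal scale these 2 stood at -0.14 and -0.24 in the latter, with no call. Higd1a rose in WT (1.21 ± 0.15) and was not called in the libraries labelled cKO (0.39, with the block adjusted p = 0.029). Egln1 and Ero1l were higher in WT (0.72 ± 0.27 and 0.76 ± 0.25) with no call in the other (0.016 and 0.18). P4ha1 had no call in either (0.78 and 0.14; WT with the block, adjusted p = 4.36e-04). Nor had Vegfa (0.51 and -1.04; the label cKO with the block, 0.00455), Egln3 (-0.11 and -0.999; the label cKO with the block, 0.0365), Hif1a, Slc2a1, Slc16a3, Pfkp, Pfkfb2 or Eno2 (the label cKO with the block, 0.0429).

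**Figure D4:**
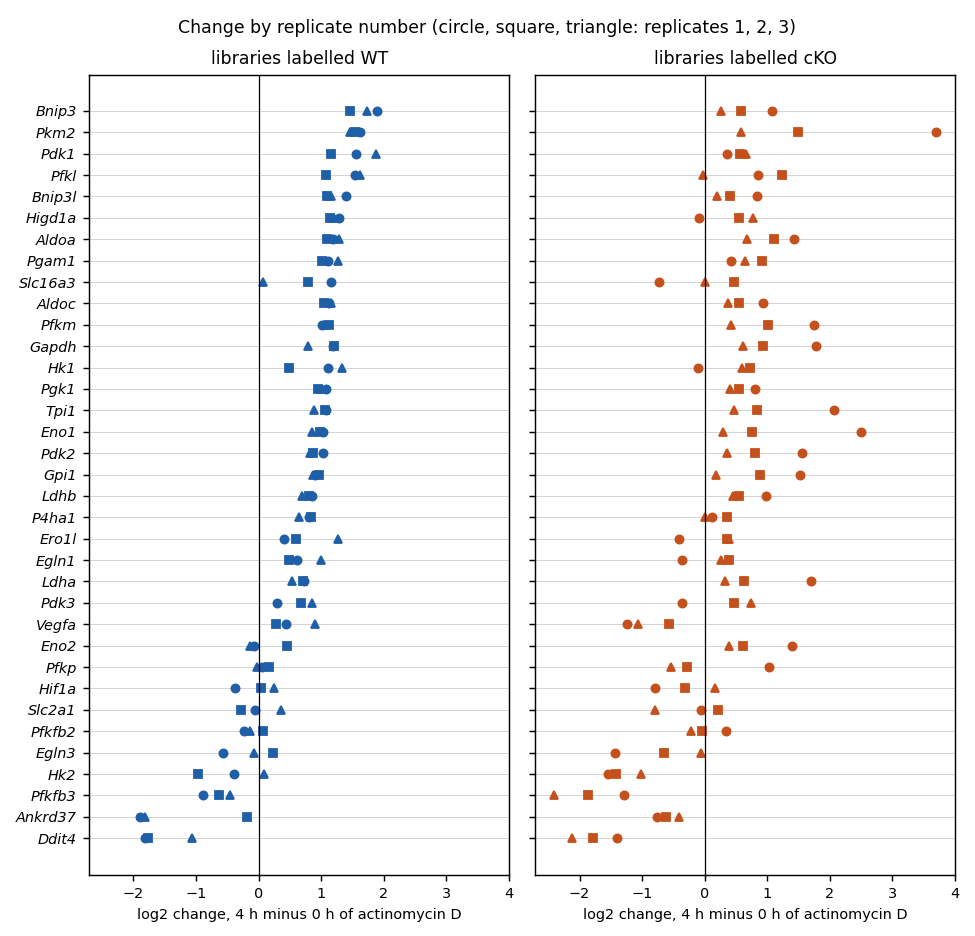
Change from 0 to 4 h of actinomycin D in each replicate number (log2 of CPM + 0.5, 4 h minus 0 h), for WT in blue and the libraries labelled cKO in orange, with members in the order of the fitted WT change. The medians over the 35 members are 0.91, 0.80 and 0.86 in WT replicates 1, 2 and 3 and 0.41, 0.55 and 0.30 in those labelled cKO, where replicate 1 is far to the right in Pkm2 and Eno1.

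At 4 h, 26, 30 and 28 of the 35 members were above their 0 h level in WT replicates 1, 2 and 3, and 21, 26 and 24 in those of the cKO label. In the fit over all replicates, 27 and 25 of the 35 members were above 0 in WT and under the cKO label. Of all 14029 genes tested, 7042 and 7536 were. Against the WT mean of the same time, the median member stood at -0.59, -0.063 and -0.12 in replicates 1, 2 and 3 of the cKO label at 0 h, -0.60, -0.33 and -0.45 at 2 h, and -0.52, -0.39 and -0.72 at 4 h. Calls in WT at 2 h rested on few libraries: 5 to 7 members were called without any 1 of the 6, and Gapdh, Gpi1 and Pfkm were called in none of those fits (adjusted p 0.0605 to 0.135). Pgk1 at 2 h in WT lost its call without WT 0 h replicate 1, 2 or 3 or WT 2 h replicate 1 or 3 (adjusted p 0.0508 to 0.106). Pgam1 lost it without WT 0 h replicate 3 (adjusted p 0.0533). Bnip3, Bnip3l, Higd1a and Pfkfb3 kept their call at 2 h in WT whichever of the 6 was left out, but with a WT replicate number left out at all times Bnip3l and Higd1a lost it in each of the 3 fits (adjusted p 0.0599 to 0.0974). Pfkfb3 lost it in the fit without replicate 1 (adjusted p 0.0748), and Bnip3 was called in all 3. At 4 h in WT, the call of Eno1 ended without WT 0 h replicate 1, 2 or 3 or WT 4 h replicate 1 (adjusted p 0.0538 to 0.0721). Egln1 lost its call without WT 0 h replicate 1, 2 or 3 or WT 4 h replicate 3 (adjusted p 0.0879 to 0.105). Pfkfb3 lost it without WT 0 h replicate 1 or 2 or WT 4 h replicate 1, 2 or 3 (adjusted p 0.0696 to 0.16). Ankrd37 lost it without WT 0 h replicate 1 or WT 4 h replicate 1 or 3 (adjusted p 0.0673 to 0.0788). Ero1l lost it without WT 0 h replicate 3 or WT 4 h replicate 3 (adjusted p 0.0548 to 0.116), and Pfkl without WT 4 h replicate 1 (adjusted p 0.0621). The other 17 calls at 4 h in WT, among them Bnip3, Pdk1, Pgk1 and Gapdh, held without any 1 of the 6 libraries compared. Of these 17, Pdk2, Hk1, Ddit4, Gpi1, Tpi1 and Pkm2 lost their call without at least 1 WT replicate number at all times (adjusted p 0.053 to 0.0907), and the other 11 held there too. In the libraries labelled cKO at 4 h, without replicate 2 at 4 h 4 members were higher and 3 lower (those lost were Aldoa, Bnip3, Bnip3l, Eno1, Gpi1, Ldha, Ldhb, Pdk2, Pgk1 and Tpi1, adjusted p 0.0571 to 0.115). Others there ended the calls of Bnip3l, Ldha, Pdk2 and Pgk1 (replicate 1 at 0 h or 4 h, and replicate 3 at 0 h for all but Pdk2, 0.0503 to 0.19). Pdk2 lost its call also without replicate 2 at 0 h (0.0758) or 3 at 4 h (0.0803). Aldoa lost it without replicate 1 at 0 h (0.0753) and Eno1 without replicate 1 at 4 h (0.075). At 2 h there, Ankrd37 lost its call without cKO 0 h replicate 1 or 2 or cKO 2 h replicate 2 or 3 (adjusted p 0.0922 to 0.174). Leaving out replicate 3 of the cKO label gave 5 higher and 3 lower (its 0 h library) or 2 higher and 3 lower (its 2 h library).

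The difference between genotypes in the linear slope over 0, 2 and 4 h was called for 0 of 35 members by edgeR, with 6 at an unadjusted p under 0.05, and for 2 by DESeq2; among all genes 0.00713% were called higher and 0% lower. The median member differed by -0.11 log2 per hour, with 29 of 35 below 0, and the median gene by 0.017, with 6321 of 14029 below 0. Bnip3 went up by 0.43 log2 per hour in WT and by 0.15 in the libraries labelled cKO (difference -0.27 ± 0.061, adjusted p = 0.153). The call came with the replicate block (adjusted p = 0.034), with DESeq2 (0.00505) and without replicate 1 at 0 h of the cKO label (0.0177). Higd1a differed by -0.21 ± 0.05 (adjusted p = 0.195, DESeq2 0.0113), Bnip3l by -0.18 ± 0.055 (0.299), Pdk1 by -0.24 ± 0.098 (0.486), Pfkfb3 by -0.31 ± 0.14 (0.558) and Vegfa by -0.39 ± 0.15 (0.458). Gapdh, Tpi1 and Pkm2 differed by -0.0051 ± 0.073, -0.0037 ± 0.089 and 0.042 ± 0.15.

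Outside the members, 13 of 37 genes of sugar metabolism were higher and 3 lower at 4 h in WT, and 11 and 1 in the libraries labelled cKO. That is 35.1% and 8.11% in WT against 15.6% and 24.2% of all genes. Under the cKO label it is 29.7% and 2.7% against 12.1% and 18%. The pyruvate carrier subunit Brp44l and the glycogen synthase Gys1 rose in WT (1.003 ± 0.17 and 1.36 ± 0.24), and the pyruvate dehydrogenase phosphatase Pdp1 fell in each genotype (-2.53 ± 0.44 and -1.97 ± 0.42). Of 41 other HIF pathway and target genes, 11 were higher and 7 lower in WT (26.8% and 17.1%) and 7 and 10 in the libraries labelled cKO (17.1% and 24.4%). The transcriptional repressor Bhlhe40, Adm and the glycogen regulator Ppp1r3c fell already at 2 h in WT (-4.75 ± 0.35, -5.43 ± 0.49 and -3.55 ± 0.30). They fell at 2 h in the libraries labelled cKO also (-5.09 ± 0.35, -5.94 ± 0.48 and -2.29 ± 0.29). The cytokine Mif rose at 4 h in WT (1.40 ± 0.15). Brp44l, Gys1 and Mif were not among the 4 smallest p of their lists under the cKO label at 4 h, so only WT values are given.

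The third comparison set the m6A pull-down against its input in WT cells. Most of the abundant enzymes were lower in the pull-down: 16 members were lower and 2 higher, against 14.3% and 6.06% of all 14167 genes tested, and the median member was -0.35 where the median gene was 0.01. On TPM the members' median was 0.13 with a median gene of 0.40, and the calls were 12 higher and 6 lower, and with library size alone they were 8 higher and 11 lower. Relative to the median gene the members' median stayed below it, by 0.36 on the TMM, RLE and library size scales and by 0.27 on TPM. These fits took no account of replicate numbers, although same-numbered libraries correlated at 0.071 to 0.427 and the others at -0.381 to 0.04. Counts with the number as a block are given at the end.

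Gapdh stood at 1824, 1945 and 1971 CPM in the inputs and 688, 852 and 762 in the m6A pull-downs (-1.32 ± 0.084, adjusted p = 7.74e-06). Ldha stood at 2454, 2375 and 2243 and 943, 1099 and 1022 (-1.21 ± 0.073, adjusted p = 5.69e-06). In each of these 2 the highest pull-down was below the lowest input. Pkm2 (-0.80), Pgk1 (-0.71), Eno1 (-0.51) and Pgam1 (-0.36) were the other payoff enzymes called lower, and Eno2 was not called (-0.13). In the preparatory phase Tpi1 (-0.65), Aldoa (-0.62) and Gpi1 (-0.59) were lower, while the phosphofructokinases, Pfkfb2, Pfkfb3, Hk1 and Aldoc were not called, from -0.45 (Aldoc) to 0.16 (Hk1). Hk2 was higher, at 25, 35 and 31.3 in the inputs and 43.6, 50.2 and 45.1 in the pull-downs (0.60 ± 0.13, adjusted p = 0.00962), with no overlap. Slc16a3 was higher too (27.6, 30.7 and 33.1 and 35.7, 39 and 41.2, 0.34 ± 0.10, adjusted p = 0.0455), and its call ended without any 1 of the 6 libraries (adjusted p 0.0547 to 0.165). Ldhb, Pdk2 and Pdk3 were lower (-0.57, -0.54 and -0.66) and Pdk1 was not called (0.18, adjusted p = 0.324). Higd1a was lower (-1.01 ± 0.10, adjusted p = 9.97e-05), as were Bnip3l (-0.40), Bnip3 (-0.35) and Egln1 (-0.47), but on TPM Bnip3, Bnip3l, Egln1 and Pgam1 stood at 0.13, 0.073, 0.024 and 0.11 with no call. Hif1a, Egln3, Vegfa, Ero1l, P4ha1, Ankrd37, Ddit4 and Slc2a1 were not called, from -0.47 (Ankrd37) to 0.24 (Egln3). The call of Egln1 ended without the m6A input replicate 2 or 3 or the m6A pull-down replicate 1, 2 or 3 (adjusted p 0.0569 to 0.135). Pdk2 lost its call without the m6A input replicate 2 or 3 or the m6A pull-down replicate 1 or 3 (adjusted p 0.0659 to 0.0969). Bnip3 lost it without the m6A input replicate 3 or the m6A pull-down replicate 1 or 3 (adjusted p 0.0524 to 0.0788), and Pgam1 without the m6A pull-down replicate 3 (adjusted p 0.0585).

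Of 37 other genes of sugar metabolism, 1 was higher (2.7%) and 10 lower (27%) in the m6A pull-down, against 6.06% and 14.3% of all genes. Brp44l stood at -1.26 ± 0.071 and the lactate transporter chaperone Bsg at -1.20 ± 0.12. Of 41 other HIF pathway and target genes 1 was higher (2.44%) and 5 lower (12.2%), both shares below those of all genes. Fam162a (-1.27 ± 0.067) and Mif (-1.22 ± 0.077) were among the lower.

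The fourth comparison set RNA pulled down with YTHDF2 against input and IgG in WT cells, and IgG against input. The 3 comparisons share libraries, so their values are given side by side. Against input, 17 members were lower and 3 higher in the YTHDF2 pull-down and 13 lower and 5 higher in IgG. Among all 14255 genes tested 17.5% were lower and 30.7% higher in YTHDF2, and 17% and 20.2% in IgG. Against IgG, 1 member was lower in YTHDF2 and 0 were higher by edgeR, with 4 at an unadjusted p under 0.05 and 0 higher and 2 lower by DESeq2, where 0.330% of all genes were lower and 14.3% higher. The median member was -0.66 (YTHDF2 to input), -0.56 (IgG to input) and -0.25 (YTHDF2 to IgG), and the median gene 0.23, 0 and -0.077. With the sample titles in place of the descriptions, YTHDF2 to input turns sign and 13 members are higher and 5 lower against IgG. On TPM the calls against input were 6 higher and 10 lower in YTHDF2 and 6 higher and 5 lower in IgG.

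**Figure D5:**
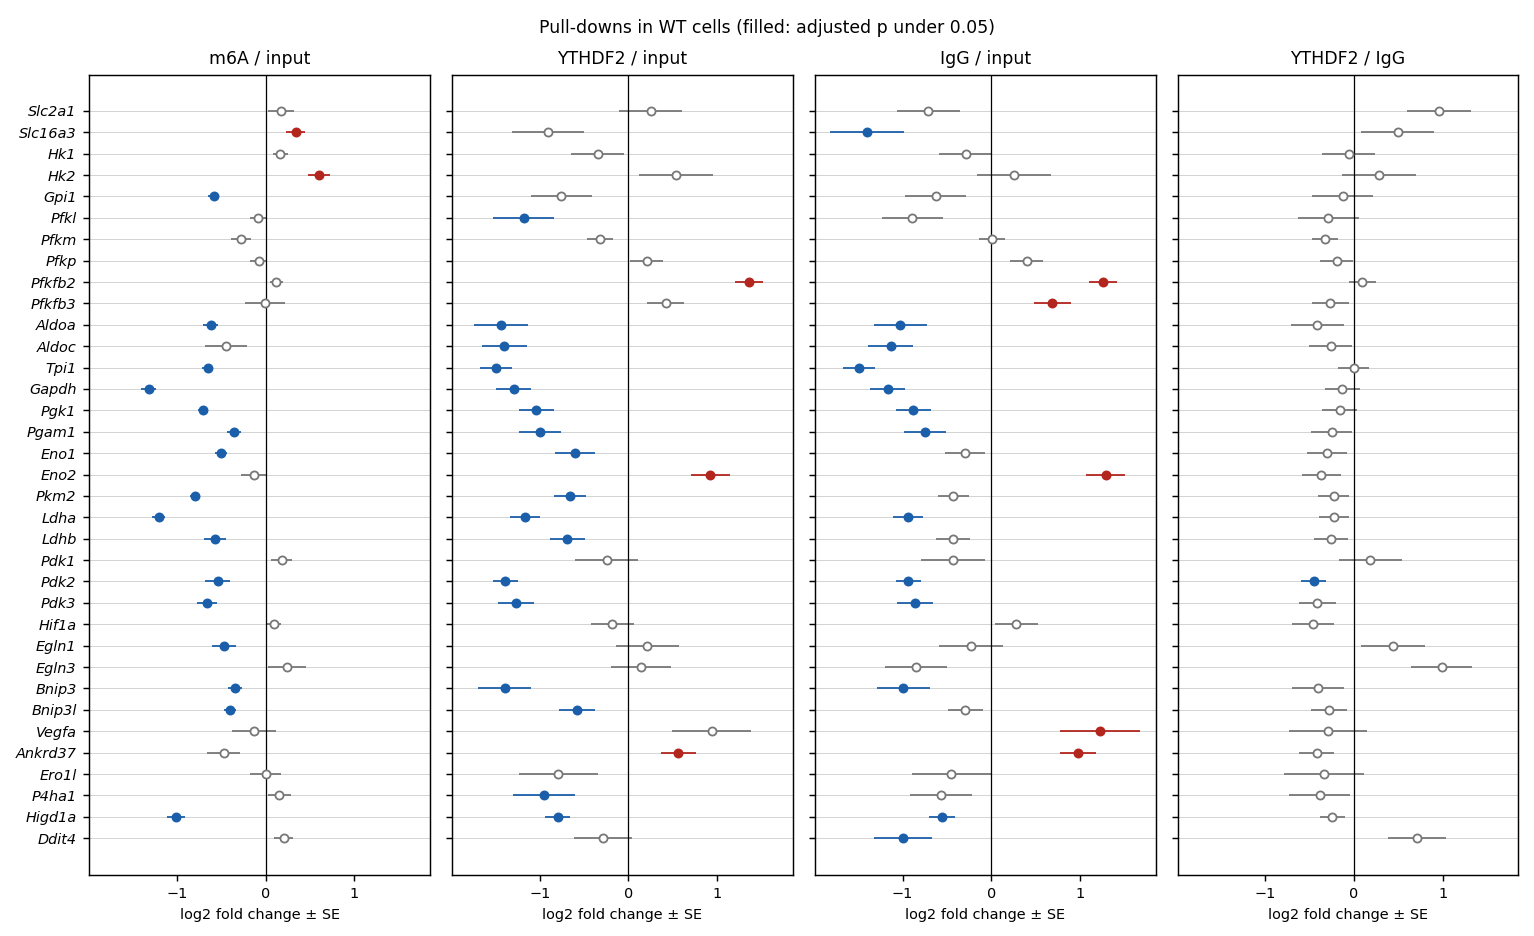
Log2 fold change ± SE of each member in the m6A pull-down against its input, and in YTHDF2 and IgG against the input and YTHDF2 against IgG, 3 libraries a group. Filled points have an adjusted p under 0.05; Tpi1 lies at -1.50 against input in YTHDF2 and at -1.49 in IgG, and at -0.0050 in YTHDF2 against IgG.

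Of the 6 payoff phase members, 5 were lower and 1 higher in YTHDF2 against input, and 3 lower and 1 higher in IgG. Of the 11 of the preparatory phase, 4 were lower and 1 higher in YTHDF2, and 3 lower and 2 higher in IgG. Tpi1 stood at 1411, 1951 and 1824 CPM in the inputs, 645, 657 and 541 in IgG and 571, 708 and 557 in YTHDF2, with differences from input of -1.49 ± 0.18 in IgG and -1.50 ± 0.18 in YTHDF2. The pull-downs overlapped each other and not the inputs. Against input, YTHDF2 and IgG held Aldoa at -1.44 and -1.03, Aldoc at -1.40 and -1.14, Gapdh at -1.30 and -1.17, Pgk1 at -1.04 and -0.88, Pgam1 at -0.996 and -0.75, and Ldha at -1.17 and -0.94, all called lower. Pdk2 (-1.39 and -0.94), Pdk3 (-1.27 and -0.86), Bnip3 (-1.40 and -0.99) and Higd1a (-0.80 and -0.56) were lower in each. Eno1, Pkm2, Ldhb, Pfkl, Bnip3l and P4ha1 were lower in YTHDF2 (-0.60, -0.66, -0.69, -1.18, -0.57 and -0.95) and not called in IgG, and Slc16a3 and Ddit4 were lower in IgG (-1.40 and -0.99) and not called in YTHDF2 (-0.91 and -0.28). Pfkfb2 was higher in each (51.8, 39 and 45.9 in the inputs, 117, 99.8 and 111 in IgG and 115, 109.8 and 125 in YTHDF2), as were Eno2 (0.92 in YTHDF2 and 1.29 in IgG) and Ankrd37 (0.56 and 0.98). Vegfa and Pfkfb3 were higher in IgG (1.23 and 0.69) and not called in YTHDF2 (0.94 and 0.42). With the replicate block, 9 of these 10 were called in each: Eno1, Pkm2, Ldhb, Pfkl and P4ha1 were lower in IgG also (adjusted p 1.43e-04 to 0.0401). Slc16a3 and Ddit4 were then lower (-0.86, adjusted p = 4.93e-06; -0.29, adjusted p = 0.043) and Vegfa and Pfkfb3 higher (0.998, adjusted p = 3.47e-07; 0.40, adjusted p = 0.0107) in YTHDF2 also, and Bnip3l was not called in IgG.

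Between YTHDF2 and IgG, Pdk2 was the member called, at 31.8, 28 and 31 CPM in YTHDF2 and 41.5, 44.1 and 38.9 in IgG (-0.46 ± 0.14, adjusted p = 0.0473), without overlap, and the call ended without any 1 of the 6 libraries (adjusted p 0.0605 to 0.174). Replicate numbers pair the libraries of this series, and in IgG the members took 2.02% of all TPM in replicate 2, against 1.38% and 1.42% in replicates 1 and 3. Slc2a1, for example, stood at 39.1, 75.8 and 41.8 in YTHDF2 and 23.1, 35.6 and 21.6 in IgG, higher in YTHDF2 in each replicate number (0.96 ± 0.36, adjusted p = 0.108; with the block 0.94, adjusted p = 6.65e-06). With the replicate number as a block, 4 higher and 6 lower were called between YTHDF2 and IgG and 6 higher and 23 lower between IgG and input. The shares of all genes given above belong to the fit without the block, so these counts have no share beside them. The block called Egln3 (0.93, adjusted p = 2.73e-04), Ddit4 (0.68, adjusted p = 1.18e-04) and Slc16a3 (0.49, adjusted p = 0.00792) higher in YTHDF2 than in IgG beside Slc2a1. Hif1a (-0.47, adjusted p = 0.0049), Bnip3 (-0.41, adjusted p = 0.0147), Aldoa (-0.43, adjusted p = 0.0184), Eno2 (-0.36, adjusted p = 0.0442) and Pfkm (-0.33, adjusted p = 0.0475) were lower beside Pdk2. Against input the block also called, in YTHDF2, Vegfa (0.998), Hk2 (0.48) and Pfkfb3 (0.40) higher and Slc16a3 (-0.86), Gpi1 (-0.76), Ero1l (-0.73), Pfkm (-0.33) and Ddit4 (-0.29) lower. Pdk1, Hk1, Egln1 and Pfkp were not called between YTHDF2 and IgG under either fit (0.19, -0.06, 0.44 and -0.19).

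Single libraries ended some calls in YTHDF2 against input. Eno1 lost its call without the input replicate 1, 2 or 3 or YTHDF2 replicate 1 or 3 (adjusted p 0.0558 to 0.167). Bnip3l lost it without the input replicate 2 or 3 or YTHDF2 replicate 1 or 3 (adjusted p 0.0785 to 0.131), and Ankrd37 without the input replicate 1 or 3 or YTHDF2 replicate 2 or 3 (adjusted p 0.0713 to 0.135). P4ha1 lost it without the input replicate 2 or YTHDF2 replicate 1 or 3 (adjusted p 0.0831 to 0.192), and Pfkl without the input replicate 2 (adjusted p 0.0846). Ldhb lost it without the input replicate 3 (adjusted p 0.0504), and Pkm2 without YTHDF2 replicate 3 (adjusted p 0.0509). The other 13 calls there, among them Tpi1, Gapdh, Pgk1, Ldha, Bnip3 and Pfkfb2, held without any 1 library. In IgG against input Vegfa lost its call without IgG replicate 2 or 3 or the input replicate 1 or 3 (adjusted p 0.0876 to 0.211). Pfkfb3 lost it without IgG replicate 2 or 3 or the input replicate 1 or 3 (adjusted p 0.0586 to 0.0903). Slc16a3 lost it without IgG replicate 1 or 3 or the input replicate 2 (adjusted p 0.0517 to 0.111), and Ddit4 without IgG replicate 1 or 3 or the input replicate 2 (adjusted p 0.087 to 0.157). Bnip3 lost it without IgG replicate 1 or 3 or the input replicate 2 (adjusted p 0.0528 to 0.0984), and Aldoa without IgG replicate 3 or the input replicate 2 (adjusted p 0.0748 to 0.0819). Pgam1 lost it without IgG replicate 3 or the input replicate 2 (adjusted p 0.107 to 0.117), and Higd1a without IgG replicate 3 (adjusted p 0.0545). The other 10 calls, among them Tpi1, Gapdh, Pgk1, Ldha, Pdk2 and Pfkfb2, held there too. Without IgG replicate 3, 3 members were higher and 7 lower there.

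Outside the members, 2 of 36 genes of sugar metabolism were higher (5.56%) and 18 lower (50%) in YTHDF2 against input, and 3 were higher (8.33%) and 0 lower against IgG. The last were Pdp1 (1.44 ± 0.18), Bpgm, which makes bisphosphoglycerate (0.74 ± 0.18), and Pfkfb4 (0.79 ± 0.24), a relative of Pfkfb3. Of 42 other HIF pathway and target genes, 6 were higher (14.3%) and 11 lower (26.2%) against input. Against IgG 3 were higher (7.14%) and 0 lower: Ppp1r3c (1.53 ± 0.18), Egln2, a prolyl hydroxylase (0.69 ± 0.19), and Pfkfb4, which stands in both lists. Among all genes 30.7% were higher and 17.5% lower against input, and 14.3% and 0.330% against IgG. Both lists were thus called higher less often than all genes.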

How the data were processed

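Raw read counts per gene were used as deposited by the authors, for 18 RNA-seq, 6 m6A and 9 YTHDF2 series libraries, and TPM, a level per transcript length, as deposited by the authors beside them. Per the submitters' processing notes, the tools were bcl2fastq 2.17.1.14, Trimmomatic 0.32 and STAR 2.5.2a, with the GRCm38 build. Which program counted the reads, with what strand setting and annotation, is not given in the sources used here, so reads of overlapping genes may be shared. RNA-seq libraries were made with SMART-seq2 and the others with a modified SMART-seq3, per the labels' protocols. Each assay was fitted apart with edgeR 4.0.16 (R 4.3.3): filterByExpr, TMM scaling, quasi-likelihood fit and test over all libraries of the assay, with Benjamini-Hochberg adjustment over all genes at 0.05, two-sided. A second RNA-seq model fitted a slope over time for each genotype. CPM are scaled to TMM library sizes, changes per replicate use log2(CPM + 0.5), and errors after ± are standard errors of log2 fold changes unless SD is named. Same-numbered libraries deviated together across the times of a genotype (residual correlations 0.126 to 0.719 over 18 pairs) and in the YTHDF2 series (0.353 to 0.646 over 9), so the numbers pair those libraries. No 2 libraries of a group agreed within sampling noise (chi-square per degree of freedom at least 6.73). Alternatives were RLE factors, library size alone, 80 ribosomal protein genes as reference, no filter, DESeq2 1.42.0, limma 3.58.1 on log2(TPM + 1), a replicate block, the 2 groups alone, the sample titles for the YTHDF2 series, and leaving out single libraries or whole replicate numbers. All 35 members are named, and of the 2 lists of other pathway genes those described are among the 4 with the smallest p in a comparison named for that list. The members and lists were chosen with earlier results of these data known. Promoters come from RefSeq (GRCm38.p6), matched by symbol or synonym, with places counted from the start site. The fits were tested on simulated data.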

Additional observations from a re-analysis of the deposited data

Results flagged for a closer look

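In 2 members every WT replicate moved one way from 0 h and every replicate of the cKO label the other way. The pattern was sought among the members alone, at 2 and 4 h, and its share among all genes was not counted. P4ha1, a subunit of collagen prolyl hydroxylase, changed by 0.10 to 0.32 in WT and by -0.43 to -0.01 in the libraries labelled cKO from 0 to 2 h (log2 of CPM + 0.5). The difference between the genotypes' slopes over 0, 2 and 4 h was -0.16 log2 per hour (edgeR, adjusted p = 0.83), which did not pass the threshold. Vegfa, the angiogenic factor, changed by 0.28 to 0.90 in WT and by -1.25 to -0.57 in the libraries labelled cKO from 0 to 4 h. Its slopes differed by -0.3896 ± 0.15 log2 per hour (unadjusted p = 0.0187 and adjusted p = 0.458 with edgeR), which did not pass either.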

How the results depend on the processing

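Of 2303 recomputed values of called members, 1825 kept direction and call, 469 lost the call and 9 turned sign. Those 9 were, from 0 to 4 h in the libraries labelled cKO on the ribosomal scale, Pgk1 (-0.121), Pgam1 (-0.073), Ldhb (-0.112), Bnip3 (-0.144) and Bnip3l (-0.237), and in the m6A pull-down on log2(TPM + 1), Pgam1 (0.114), Egln1 (0.024), Bnip3 (0.13) and Bnip3l (0.073). Counts of members under alternatives, here and above, stand without shares of all genes, which are given for the main fit only. For WT at 2 h against 0 h, the 10 members called became 16 with no filter, 4 on the ribosomal scale, 20 with DESeq2, 5 with limma on TPM, 20 with the replicate block and 23 with the 2 groups alone. For WT at 4 h, the 23 became 14 with library size alone, 10 on the ribosomal scale and 11 on TPM. In the libraries labelled cKO, the 3 at 2 h became 5 on the ribosomal scale, 13 with the replicate block and 1 with the 2 groups alone, and the 17 at 4 h became 7 with library size alone, 10 on the ribosomal scale, 9 on TPM and 3 with the 2 groups alone. The 1 called between YTHDF2 and IgG became 2 with no filter, 2 with DESeq2, 0 on TPM, 10 with the replicate block, 0 with the 2 groups alone and 18 with the sample titles, and the 18 between IgG and input became 11 on TPM, 29 with the replicate block and 1 with the sample titles. The slope, with 0, had 2 with DESeq2 and 1 with the replicate block. With the sample titles YTHDF2 against input turns sign by construction, with 17 higher and 3 lower. Leaving out 1 library or 1 replicate number gave 3 to 15 at 0 h between genotypes, 6 to 17 at 2 h, 8 to 17 at 4 h, 2 to 7 and 15 to 22 for WT at 2 and 4 h, 1 to 11 and 7 to 20 for the cKO label, 13 to 17 for m6A, 15 to 21, 0 and 10 to 17 for YTHDF2 to input, YTHDF2 to IgG and IgG to input, and 0 to 1 for the slope. Single libraries that moved a count by over 1.5 times were WT replicate 3 at 0 h (genotypes at 0 h, 6), WT replicates 1 (6) and 3 (5) at either 0 or 2 h (WT at 2 h), replicate 3 of the cKO label at 0 h (8) or 2 h (5) (cKO label at 2 h), its replicate 2 at 4 h (7), IgG replicate 3 (10), any 1 library between YTHDF2 and IgG (0) and replicate 1 at 0 h of the cKO label (slope, 1). Where a library left out leaves 2 in its group, the spread is shared with the other groups. In the m6A series the same-numbered libraries correlated at 0.071 to 0.427 (3 pairs), above all others (-0.381 to 0.04, 6 pairs), so the numbers may pair these too. With the block, m6A gave 5 higher and 19 lower. Replicate numbers did not pair the genotypes (-0.085 to 0.074, 9 pairs). With the block anyway, the genotypes gave 2 higher and 8 lower at 0 h, 0 and 13 at 2 h and 2 and 14 at 4 h. Across the times of a genotype and in the YTHDF2 series, the block ended no call of a member. Depth limits Slc16a3, at 0 to 34 counts in RNA-seq. It limits also Ddit4, at 0.191 to 0.388 CPM in WT at 4 h, and Ankrd37, at 0.216 to 0.460 under the cKO label at 2 h. The causes of the changes above were not tested.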
